A study of Saccharomyces cerevisiae with 24 samples.

Results

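The genes that encode the proteins of the cytosolic ribosome were followed in baker's yeast, Saccharomyces cerevisiae, during the first 240 min of hypoxia. They were chosen by name: RPL genes for the large subunit, RPS genes for the small subunit, and RPP0, RPP1A, RPP1B, RPP2A and RPP2B for the stalk. This gave 137 of the 7140 features counted, 76 RPL, 56 RPS and 5 RPP genes, and all 137 passed the filter on low counts that left 6262 features for testing. Of these genes, 118 form the 59 pairs of A and B copies and 19 have a single copy. Polyadenylated RNA was sequenced from 24 libraries, 1 for each of 8 times (0, 5, 10 and 30 min, then 60, 120, 180 and 240 min) in each of 3 courses. The strain, yMH914, is an S288C derivative of mating type a that is GAL2+ and carries ura3D0, his3D200, leu2D0, lys2-128d and a repaired HAP1 gene in every sample. No library held more than 2 counts of URA3 or HIS3, or any of LEU2, while STE2, the receptor of mating type a cells, had 4321 to 16418, and STE3, that of the other mating type, 31 to 206. Cells grew in air in YPD, a rich glucose medium, at 30°. The 0 min samples were taken in air, and the cells were then diluted into flasks sparged with nitrogen. According to the study's methods, the dilution was set for cells to be in mid-log phase when sampled. The dilution and the loss of oxygen therefore cannot be told apart in any comparison with 0 min. Between later times, the degree of dilution and the time in nitrogen cannot be told apart either.

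Each ribosome needs close to equal numbers of its proteins, and in growing yeast their genes are among the most heavily transcribed. Most of their promoters are known to be bound by Rap1, which recruits Fhl1 and Ifh1, while Sfp1 and the kinases TORC1, Sch9 and protein kinase A tie their transcription to nutrients and growth. They are lowered together with the genes of ribosome assembly in many stresses, as part of a general response that also includes the rise of chaperones and trehalose enzymes.

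The A and B copies of a pair can be so alike that a read cannot be placed. Reads were 65 bases long, and reads with more than 1 location were not counted. Of the 137 genes, 111 had at least 80% of their 65-base coding windows found at a single place and 73 had all of them, while 14 had under 50%. The stretches below show both cases. The first pair is bases 509 to 573 of the coding sequences of RPL9A (chromosome VII, 227754 to 228329, reverse strand) and RPL9B (chromosome XIV, 499681 to 500256, forward strand) in build R64, the pair whose copies parted most clearly in these data. Capitals mark the 10 bases that differ there, of 36 over the 576 coding bases.
RPL9A: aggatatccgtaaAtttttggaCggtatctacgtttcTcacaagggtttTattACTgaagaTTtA
RPL9B: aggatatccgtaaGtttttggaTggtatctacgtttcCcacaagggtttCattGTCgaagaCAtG
In contrast, RPL1A (chromosome XVI, 135790 to 136443, forward strand) and RPL1B (chromosome VII, 254641 to 255294, forward strand) differ at 4 of 654 bases, and bases 16 to 80 are the same in both copies, so a read from this stretch was counted for neither.
RPL1A: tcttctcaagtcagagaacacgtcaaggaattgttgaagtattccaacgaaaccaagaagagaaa
A fall in such genes rests on the few windows that differ, 24.6% of windows for RPL1A and RPL1B and 25.6% for RPS8A and RPS8B.

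Course 1 stood apart from courses 2 and 3 in the levels of many of these genes. Averaged over the 8 times, 48 of the 137 genes were more than 1 log2 unit higher in course 1 than in the mean of the others and 4 were more than 1 lower, whereas none differed by more than 1 between courses 2 and 3. Genes with short coding sequences were higher in course 1, with a median difference of 2.30 log2 units for the 8 members under 200 bases and -0.04 for the 29 members from 600 to 1000 bases, and all genes tested gave 1.21 and 0.25 for these lengths. RPL43B was 3.57 higher and RPL39 3.00 higher in course 1, while RPL33A was 3.27 lower, RPL28 2.21 lower and RPP0 1.39 lower. The features numbered next to these last genes and named for the opposite strand, YPL142C, YGL102C and YLR339C, held reads in course 1: 1166 to 1780 counts per library for YPL142C, 1962 to 4526 for YGL102C and 322 to 803 for YLR339C. In courses 2 and 3 they held at most 2. The 678 open reading frames outside the annotation used here took 4330 to 5120 CPM (counts per 1000000) in course 1, beside 401 to 621 CPM for course 2 and 364 to 551 CPM for course 3. Whether the strand of the reads was used in each course is not given in the sources used here, and its part in these levels was not tested. Medians of the ratios between times of the same course are therefore given for the 137 genes in each comparison of 2 times.

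**Figure D1:**
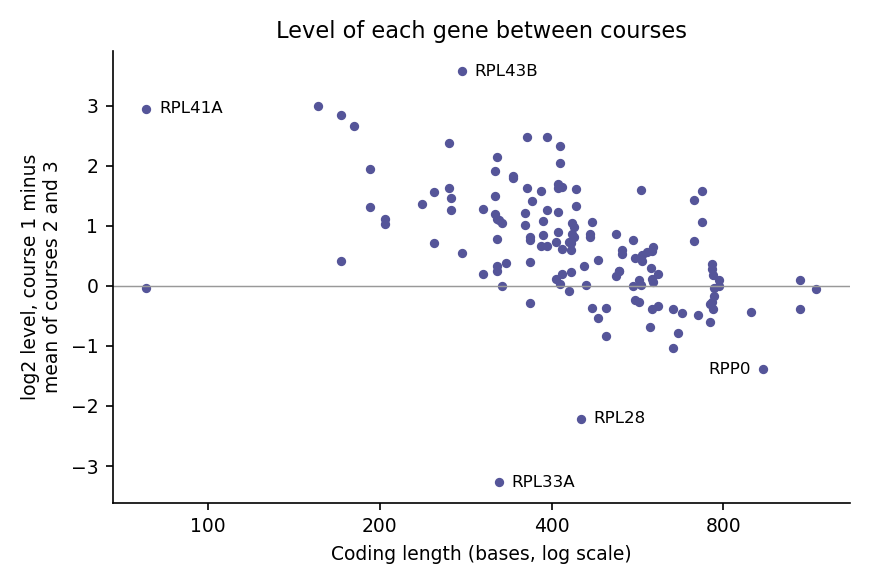
Each point is 1 of the 137 genes, with its coding length in bases on a log axis and, on the vertical axis, its mean log2 level in course 1 minus that in courses 2 and 3. Genes under 200 bases have a median of 2.30, RPL43B is highest at 3.57 and RPL33A lowest at -3.27.

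The share of all counted reads that fell in the 137 genes was lower at 30 min than at 0 min in every course. At 30 min courses 1 to 3 had 17.6%, 10.7% and 9.11%, against 22.1%, 17.7% and 17.5% at 0 min, or 79.7%, 60.4% and 52.0% of the 0 min share. At 240 min the shares were 17.1%, 11.0% and 11.0%, in the same order. Between these low points it was higher. Course 1 had 22.0% at 120 min and 21.7% at 180 min, course 2 had 13.6% and 13.7%, and course 3 had 13.3% and 13.9%. Its mean over courses was 12.5% ± 4.52 at 30 min and 13.0% ± 3.51 at 240 min, against 19.1% ± 2.59 at 0 min (SD, n = 3 each). The counts are deep, 4980240 to 16346113 per library, so the 95% Wilson interval of the share at 0 min in course 1 runs only from 22.09% to 22.14%, and the spread between courses is the larger error. These values are relative to the other RNAs of a library, and less RNA per cell cannot be told apart from more RNA of other genes.

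**Figure D2:**
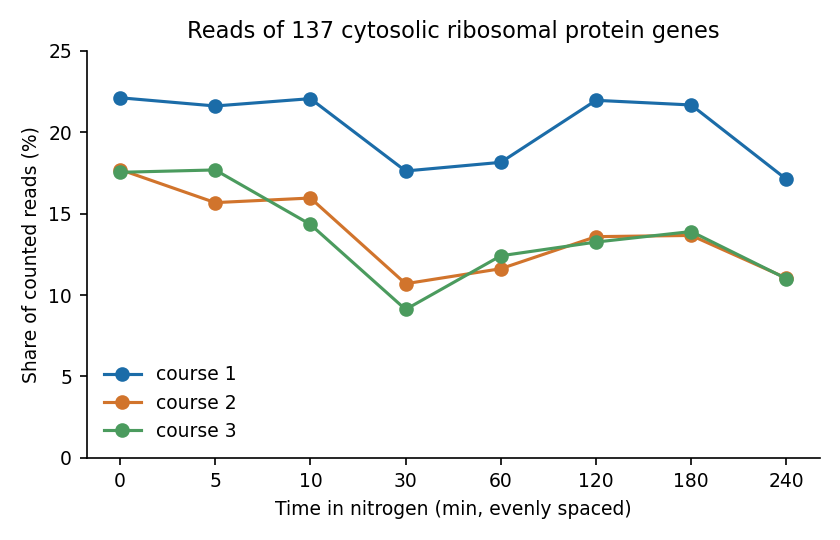
Share of counted reads (%) in the 137 genes against time in nitrogen (min, evenly spaced), 1 line per course. All 3 lines are low at 30 min (17.6%, 10.7% and 9.11%) and again at 240 min (17.1%, 11.0% and 11.0%), with higher values at 120 and 180 min.

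The same pattern was seen gene by gene. Normalised CPM (scaled by the trimmed mean of M values, TMM) were set against 0 min of the same course on the log2(CPM + 1) scale. From 5 to 240 min, the median over the 137 genes was -0.11, -0.15, -0.57, -0.56, -0.29, -0.18 and -0.61 in course 1. In course 2 it was -0.42, -0.34, -0.84, -0.95, -0.67, -0.58 and -1.02, and in course 3 it was -0.29, -0.68, -1.38, -0.81, -0.81, -0.73 and -1.14. The median over all genes tested stayed between -0.06 and 0.01 throughout. Course 1 had the smallest fall at every time and course 3 the largest at 30 min. The time of a gene's lowest level was 30, 60 or 240 min for 134 genes in course 1, 122 in course 2 and 132 in course 3, and 240 min was the most frequent in course 2 (76 genes) and 30 min in courses 1 and 3 (52 and 86 genes).

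**Figure D3:**
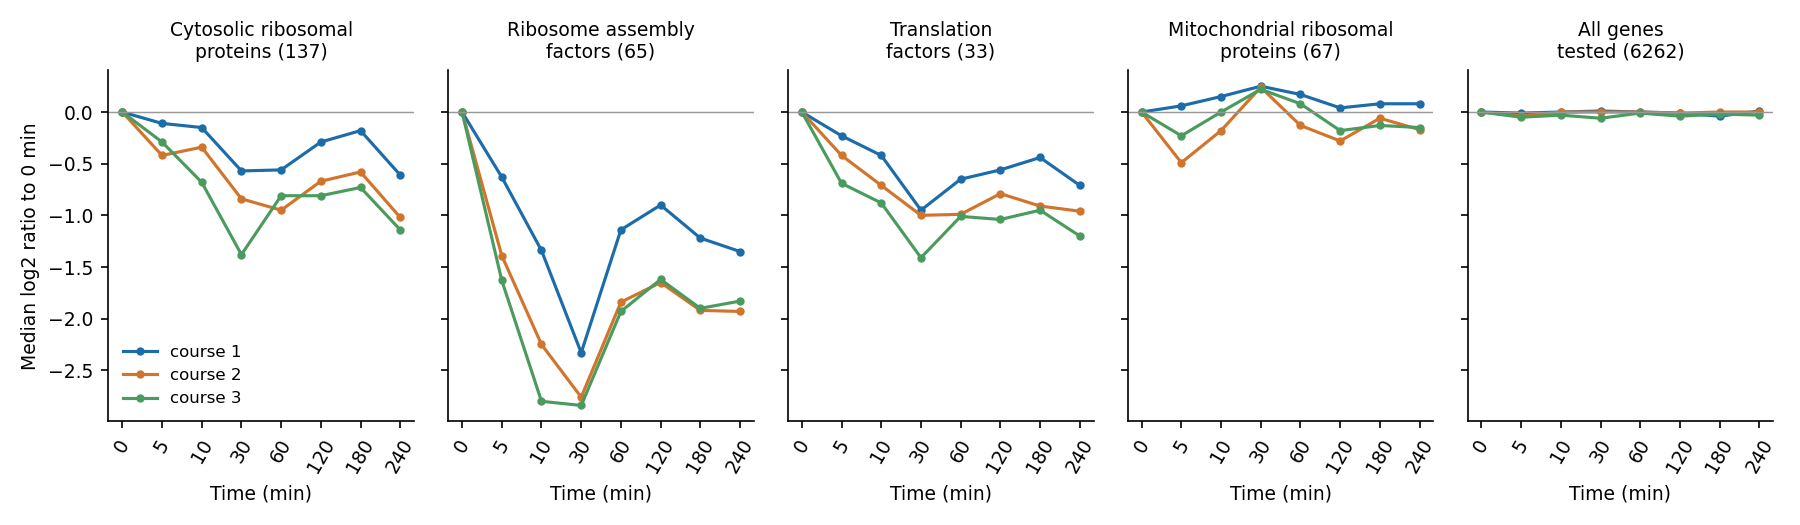
Median log2 ratio to 0 min against time (min, evenly spaced) for 5 groups of genes, 1 line per course. Cytosolic ribosomal protein genes reach -0.57, -0.84 and -1.38 at 30 min, ribosome assembly factors -2.33, -2.76 and -2.84, and mitochondrial ribosomal protein genes 0.25, 0.24 and 0.22.

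At 30 min against 0 min, 59 of the 137 genes were lower and none was higher, at an adjusted p under 0.05 in edgeR's quasi-likelihood test with time as the only factor. Of all 6262 genes tested, 14.0% were lower. The median log2 fold change was -0.88 over the 137 genes and 0.01 over all genes, and 135 of the 137 values were below 0. With the course as a block, 126 of the 137 genes were lower and none higher, with a median of -0.97, beside 24.2% of all genes. The level fell within all 3 courses for 123 of the 137 genes, against 30.1% of all genes. Without the block, leaving out a course moved the count to 122 without course 1, 19 without course 2 and 11 without course 3, and with the block to 122, 112 and 98, all lower. Of all genes then tested (5875, 6319 and 6293), 1337, 414 and 393 were lower without the block and 1360, 1094 and 1068 with it. Without course 3 the blocked fit also called RPL41A higher. Scaling to total counts put the median of all genes at 0.25 and that of the 137 genes at -0.62, while the gap between the 2 medians was -0.87 against -0.89 with TMM. With that scaling 35 of the 137 genes were lower, beside 646 of all 6262 genes.

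**Figure D4:**
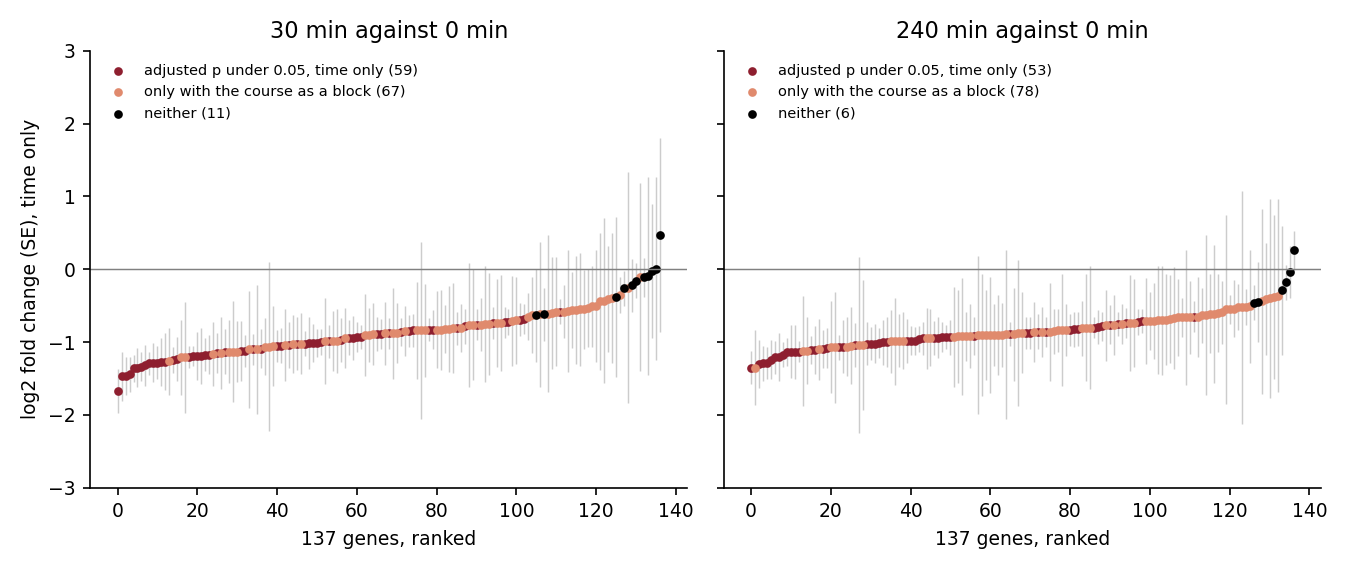
The 137 genes ranked by log2 fold change at 30 min (left) and at 240 min (right), each against 0 min, with time as the only factor and bars for the standard error (SE). Dark red points passed in that fit (59 and 53 genes), light red points passed with the course as a block only (67 and 78 genes), and black points passed in neither (11 and 6 genes).

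Single-copy genes lose no reads to a second copy. At 30 min 11 of the 19 were lower without the block and 17 with it, beside 14.0% and 24.2% of all genes. In course 1, 16 fell and 3 rose: RPL28, RPL29 and RPL39 (log2 ratios 0.32, 0.31 and 0.20). In the large subunit, the values of RPL3, RPL5, RPL10 and RPL25 are given here. RPL3, whose protein lies by the peptidyl transferase centre, had 2500, 2620 and 2027 CPM at 30 min in courses 1 to 3, against 4792, 6379 and 6291 CPM at 0 min. The values of the 2 times did not overlap, and the log2 fold change was -1.29 (SE 0.16, adjusted p = 6.2e-06). RPL5, which carries 5S rRNA into the subunit together with RPL11, had 905, 1307 and 852 CPM at 30 min, against 2143, 3044 and 2637 CPM at 0 min (log2 fold change -1.35, SE 0.27, adjusted p = 0.00082). RPL10, which joins late and lets the subunit become active, had 884, 1643 and 1184 CPM, against 2586, 3636 and 2745 CPM (-1.27, SE 0.39, adjusted p = 0.019). RPL25, at the polypeptide exit, moved less: it had 2036, 1276 and 978 CPM at 30 min, against 2380, 1885 and 2157 CPM at 0 min, and its log2 fold change of -0.58 (SE 0.37) had an adjusted p of 0.31 without the block and 0.0021 with it.

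The stalk binds the factors that drive elongation. Its base protein RPP0 had 1312, 3478 and 3501 CPM at 30 min, against 2601, 6989 and 6877 CPM at 0 min. Every course thus showed a similar fall, but the low level of course 1 in both groups left them overlapping, with a log2 fold change of -0.99 (SE 0.59), an adjusted p of 0.26 without the block and one of 3.7e-06 with it. RPL12A, which sits beside the stalk, had 409, 430 and 383 CPM at 30 min, against 590, 1343 and 1428 CPM at 0 min, 1 of the 3 lowest log2 fold changes at -1.46 (SE 0.26, adjusted p = 0.00023). Of the 5 RPP genes, 3 were lower at 30 min without the block and all 5 with it.

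In the small subunit, RPS3, at the entry of the mRNA channel, had 1374, 1834 and 1329 CPM at 30 min, against 2822, 3913 and 3369 CPM at 0 min (log2 fold change -1.15, SE 0.28, adjusted p = 0.0043). RPS13 had 1605, 1380 and 916 CPM, against 2980, 2087 and 2786 CPM (-1.01, SE 0.26, adjusted p = 0.0057). RPS31, made as a fusion with ubiquitin, had 6747, 5625 and 5548 CPM, against 8577, 14868 and 13581 CPM (-1.05, SE 0.22, adjusted p = 0.0013). In each of these genes the 30 min values lay below all 0 min values. The lowest log2 fold change of all was that of RPS8B, -1.67 (SE 0.30, adjusted p = 0.00027), with 641, 401 and 282 CPM at 30 min, against 992, 1832 and 1385 CPM at 0 min. Its copy RPS8A had -1.19, and only 25.6% of the windows of either copy are unique.

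The levels themselves spanned a wide range. Per kilobase of coding sequence at 0 min, the highest means were 116746 CPM for RPL41B, 26889 for RPS31 and 23312 for RPL41A, and the lowest 69.4 for RPL15B, beside a median of 2456. The RPL41 coding sequence has 78 bases, so a 65-base read barely fits inside it and the per-kilobase value of this tiny protein depends on reads that reach past its ends. RPL41A had the highest log2 fold change at 30 min, 0.47, with an SE of 1.33. It had 6033, 796 and 723 CPM at 30 min, against 3829, 673 and 953 CPM at 0 min, higher in courses 1 and 2 and lower in course 3 (adjusted p = 0.89). RPL29 (0.01, SE 1.26) and RPS30A (-0.03, SE 0.92) came next, and neither passed with the block. The other genes that did not pass at 30 min with the block were RPL9B, RPL15B, RPL37B, RPL39, RPL41B, RPL43A, RPS9A and RPS21B.

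Coding length moved with these calls. Of the 19 genes under 300 bases, 1 was lower at 30 min without the block, with a median of -0.56, and of the 118 longer genes 58 were lower, with a median of -0.93. With the block these counts were 11 of 19 and 115 of 118. These are the lengths at which the courses differed most in level, and the part of that difference in the smaller fall was not tested. Other ways to divide the genes gave medians close to each other at 30 min: -0.90 for RPL, -0.87 for RPS and -0.87 for RPP genes, -0.85 for A copies, -0.89 for B copies and -0.99 for single-copy genes, -0.85 for the 89 genes with an intron and -0.98 for the 48 without. The 111 genes with at least 80% unique windows had a median of -0.87, against -0.92 for the other 26. In courses 2 and 3, where the files give them, alignments that were not unique numbered 104 and 114 per 100 counted reads at 30 min, against 63.0 and 63.3 at 0 min, and their part in the fall of copies with shared windows was not tested.

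At 5 min against 0 min the median was -0.25 over the 137 genes and -0.05 over all genes, and no ribosomal protein gene passed in edgeR without the block, beside 4.65% of all genes lower. At an unadjusted p under 0.05 there were 4, a share not counted over all genes. DESeq2 called RPS7B lower, beside 361 of all 6262 genes. With the block 7 were lower (RPL9B, RPL20B, RPL22A, RPL22B, RPL36B, RPL37A and RPS7B), beside 12.4% of all genes, and 76 of the 137 were lower in all 3 courses, against 26.9% of all genes. The 3 lowest values belonged to both copies of RPL22, a protein of the large subunit, and to RPL36B. RPL22B had 227, 87.9 and 110 CPM at 5 min, against 352, 187 and 163 CPM at 0 min, lower in each course (-0.73, SE 0.66, adjusted p = 0.74 without the block and 0.0027 with it). RPL22A had 410, 435 and 456 CPM, against 543, 635 and 675 CPM (-0.51, SE 0.23, adjusted p = 0.24 and 0.041). The highest values at 5 min, 0.31 for RPS9A, 0.26 for RPL41A and 0.19 for RPL15B, did not pass in either fit. With the block, 2 genes were lower when course 3 was left out, 0 without course 2 and 12 without course 1, where RPS9A was called higher. Of all genes tested, 326 of 6293, 215 of 6319 and 792 of 5875 were lower in these fits.

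At 240 min against 0 min, 53 of the 137 genes were lower and none higher, beside 12.6% of all genes lower, with a median of -0.87 against -0.02 over all genes. With the block 131 were lower, beside 23.8% of all genes, and 133 of the 137 were lower in all 3 courses, against 32.1% of all genes. Fits without the block called 131 genes when course 1 was left out, 5 when course 2 was and 8 when course 3 was, and fits with it 130, 103 and 115. Of all genes then tested (5875, 6319 and 6293), 1320, 200 and 311 were lower without the block and 1348, 945 and 1121 with it. Scaled to total counts, 27 were lower, beside 518 of all 6262 genes. The 3 lowest were RPS26B, RPL11B and RPL9A. RPS26B, whose protein lies at the exit of the mRNA channel, had 453, 181 and 204 CPM at 240 min, against 907, 523 and 710 CPM at 0 min, with no overlap (-1.35, SE 0.51, adjusted p = 0.065 without the block and 4.9e-06 with it). RPL11B, of the 5S particle, had 362, 251 and 257 CPM, against 632, 712 and 874 CPM (-1.35, SE 0.23, adjusted p = 0.00023). The 6 genes that did not pass with the block were RPL7B, RPL9B, RPL15B, RPL30, RPL41B and RPS9A.

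Over all times together, edgeR's F-test with 7 degrees of freedom for time called 46 of the 137 genes, or 33.6%, beside 26.5% of all genes, and with the block 128, or 93.4%, beside 54.9%. Total-count scaling gave 23 calls, beside 652 genes lower and 1049 higher of all 6262, a larger share than over the 137 genes. Leaving out course 1, 2 or 3 gave 128, 0 and 1 calls in the fit without the block and 129, 72 and 110 with it. Of all genes tested, the fits without the block called 1544 lower and 1618 higher of 5875, 195 and 155 of 6319, and 264 and 222 of 6293. The fits with it called 1586 and 1659, 1012 and 895, and 1252 and 1212.

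The median level differed little between 240 and 30 min. At 240 min against 30 min the median log2 fold change was 0.04 over the 137 genes, with medians of 0.03, -0.14 and 0.25 in courses 1 to 3, and none passed without the block, beside 10.0% of all genes in either direction. There were 4 genes at an unadjusted p under 0.05, a share not counted over all genes. DESeq2 called RPL3 and RPS4A higher, beside 494 of all 6262 genes. With the block, RPL10, RPL13B, RPS4A and RPS19B were higher and RPL41A and RPS10B lower, beside 26.7% of all genes, and 10 were called without the block when course 1 was left out. In that last fit 777 genes were lower and 762 higher of all 5875 tested. RPL10 had 1423, 2140 and 2593 CPM at 240 min, against 884, 1643 and 1184 CPM at 30 min (0.73, SE 0.39, adjusted p = 0.30 without the block and 0.0026 with it). RPL13B had 1467, 1163 and 1837 CPM, against 1177, 1129 and 536 CPM (0.65, SE 0.27, adjusted p = 0.16 and 0.032). RPL43A, among the 3 lowest at -0.51 (SE 0.36), had 564, 390 and 260 CPM, against 548, 702 and 479 CPM, and did not pass in either fit.

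The steps between 30, 180 and 240 min were compared after the values had been seen. At 180 min against 30 min the median was 0.43 over the 137 genes and 0.01 over all genes. Within courses 1 to 3 it was 0.45, 0.26 and 0.62 over the 137 genes. Of these, 113 were higher in all 3 courses, against 26.7% of all genes. Without the block 6 genes were higher (RPL3, RPL12A, RPS4A, RPS8B, RPS25B and RPS31), beside 5.41% of all genes, and with it 63, beside 14.9%. The 6 became 46 without course 1 and 0 without course 2 or course 3, and with the block the counts were 46, 36 and 11. Of all genes then tested (5875, 6319 and 6293), 755, 39 and 39 were higher without the block and 783, 618 and 515 with it. RPL3 had 3647, 3513 and 4046 CPM at 180 min, against 2500, 2620 and 2027 CPM at 30 min (0.65, SE 0.16, adjusted p = 0.015). RPS8B had 927, 732 and 1129 CPM, against 641, 401 and 282 CPM, the highest value at 1.07 (SE 0.30, adjusted p = 0.028). At 240 min against 180 min the median was -0.42 over the 137 genes and -0.01 over all genes, close to the same in each course (-0.40, -0.43 and -0.43), and 124 of the 137 were lower in all 3 courses, against 19.0% of all genes. No gene of the 137 passed in edgeR with or without the block, beside 0.112% and 0.0160% of all genes lower. An unadjusted p under 0.05 was found for 89 and 20 of them, a share not counted over all genes. DESeq2 called RPS25B lower, beside 6 of all 6262 genes.

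The A and B copies were compared within each pair. The A copy's share of the reads of the pair moved in the same direction in all 3 courses in 18 of 59 pairs at 30 min and 23 at 240 min. These counts take in small changes, and how many pairs would do so by chance was not tested. A change of at least 5 points in the same direction in all 3 courses was found in 1 pair at 30 min and 2 at 240 min. Over the 59 pairs the absolute difference between the copies' log2 fold changes had a median of 0.29 at 30 min and 0.22 at 240 min, and it was above 0.5 in 11 and 10 pairs. Only RPL9 met the rule for naming a pair, a change of the A copy's share by at least 10 percentage points in the same direction in all 3 courses, and it did so at 30 min. RPL9A supplied 32.9%, 30.7% and 22.0% of the reads of the pair at 30 min, against 45.9%, 54.9% and 53.6% at 0 min, and 36.5%, 27.6% and 31.5% at 240 min. At 240 min the mean difference was -19.6 points, and at 30 min -22.9. The pair was named for these shares, so their change is a description. An exact permutation test of 3 against 3 libraries gave p = 0.1 at both times. This is the lowest p it can give, so the test cannot decide. RPL9A had 422, 289 and 144 CPM at 30 min, against 775, 756 and 846 CPM at 0 min (-1.47, SE 0.34, adjusted p = 0.0024). It had 455, 217 and 294 CPM at 240 min (-1.30, SE 0.33, adjusted p = 0.0071). RPL9B had 859, 652 and 512 CPM at 30 min, against 913, 620 and 732 CPM at 0 min (-0.16, SE 0.24, adjusted p = 0.73), and 792, 569 and 640 CPM at 240 min (-0.18, SE 0.24, adjusted p = 0.71). The 2 copies encode proteins that differ at 4 positions, and 91.0% of their windows are unique, so this split rests on reads such as those of the stretches printed above.

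**Figure D5:**
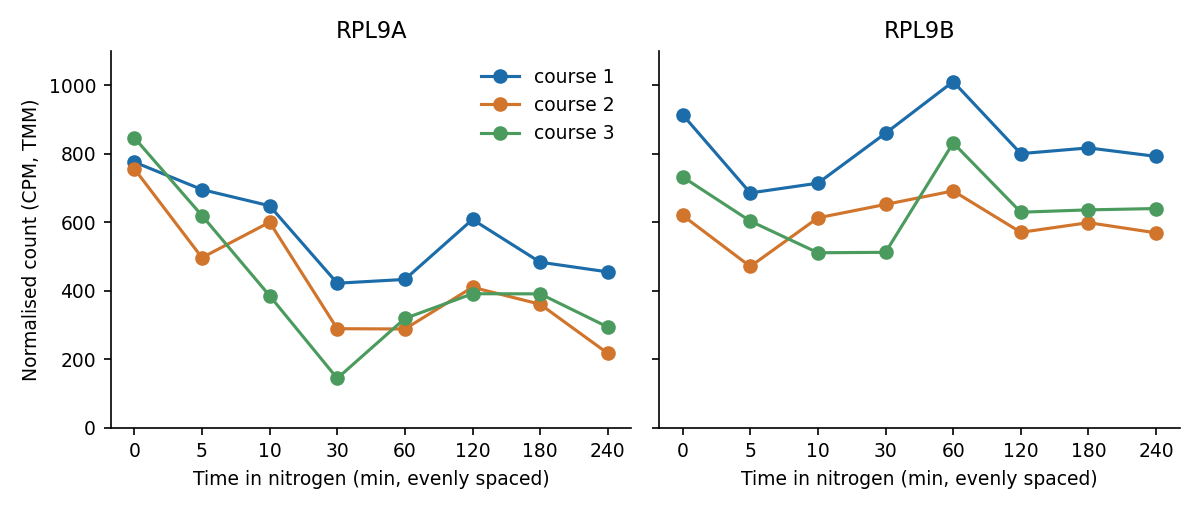
Normalised counts (CPM) of RPL9A (left) and RPL9B (right) against time in nitrogen (min, evenly spaced), 1 line per course. At 30 min RPL9A lies between 144 and 422 CPM, against 756 to 846 CPM at 0 min, while RPL9B lies between 512 and 859 CPM, against 620 to 913 CPM.

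RPL15 and RPS9 had the next widest gaps between copies at 30 min (A minus B, -1.07 and 0.97, against -1.31 for RPL9), and RPL15 the widest at 240 min (-1.21, against -1.12 for RPL9). Their partner copies were chosen after their values were seen. RPL15B, the minor copy, had 46.3, 43.8 and 28.6 CPM at 30 min, against 44.0, 52.6 and 31.5 CPM at 0 min (-0.11, SE 0.27, adjusted p = 0.87), and it had 43.8, 72.3 and 37.1 CPM at 240 min (0.26, SE 0.27, adjusted p = 0.59). Its partner RPL15A had 886, 1206 and 939 CPM at 30 min, against 2008, 2789 and 2043 CPM at 0 min (-1.17, SE 0.23, adjusted p = 0.00053). RPS9A had 386, 518 and 504 CPM at 30 min, against 510, 654 and 475 CPM (-0.22, SE 0.36, adjusted p = 0.76), and its partner RPS9B had 2168, 1387 and 909 CPM, against 3528, 3063 and 3622 CPM (-1.19, SE 0.33, adjusted p = 0.0093). The RPS9A share of its pair was 15.1%, 27.2% and 35.6% at 30 min, against 12.6%, 17.6% and 11.6% at 0 min, so the shift was slight in course 1. The difference between copies was not tested for these pairs.

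The bases before the start codon were searched for CCNTACAT, the core of the Rap1 site, on both strands. Of the 137 genes, 58 (42.3%) held at least 1 match within 500 bases, against 5.61% of 5986 protein-coding genes. This motif was chosen with the data in view. The matches lay a median of 315.5 bases before the start codon. The Abf1 motif, another factor known at some of these promoters, was found in 13 of the 137 (9.49%), against 18.2% of all. RPL13A, whose partner RPL13B is described above, is shown as an example because it holds 3 matches, in capitals, within the stretch of chromosome IV, 308112 to 308261 (build R64, forward strand) that begins 312 bases before its start codon.
RPL13A: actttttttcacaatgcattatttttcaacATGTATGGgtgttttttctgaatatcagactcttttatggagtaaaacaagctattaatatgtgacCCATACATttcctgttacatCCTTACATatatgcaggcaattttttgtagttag
The first match reads on the opposite strand and the others on the strand shown. The stretch also lies upstream of RPS16B, which runs the other way. The same 3 matches, 360, 426 and 446 bases before its start codon, were counted for that gene too. Genes with and without a match had medians of -0.87 and -0.88 at 30 min, and of -0.86 and -0.89 at 240 min. RPL9A, RPL9B and RPL15B held no match.

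Genes known to regulate this set or the genes of ribosome assembly moved unevenly. Of 16 regulators, 7 were lower and none higher at 30 min without the block, beside 14.0% of all genes lower. With the block 7 were lower, beside 24.2%. DOT6 (adjusted p = 0.018) and STB3 (adjusted p = 0.0072), both known as repressors of ribosome assembly genes, were then higher, beside 21.2%. Their log2 fold changes without the block were 0.51 and 0.71, at adjusted p of 0.42 and 0.23. The known activators differed in their values. IFH1 had 125, 158 and 118 CPM at 30 min, against 241, 267 and 291 CPM at 0 min (-0.99, SE 0.21, adjusted p = 0.0011), and it was already lower at 5 min (-0.97, SE 0.21, adjusted p = 0.0046), but at 240 min its log2 fold change was -0.37 (adjusted p = 0.22). FHL1 (-0.80), HMO1, a DNA-binding protein of these promoters (-0.76), and RAP1 (-0.66) were lower at 30 min, at adjusted p of 0.0042, 0.0027 and 0.014, whereas SFP1 had -0.24 (adjusted p = 0.63). CRF1, a corepressor that competes with Ifh1 for Fhl1 in some strains, had 66.3, 39.0 and 46.7 CPM at 240 min, against 12.4, 3.75 and 2.6 CPM at 0 min (3.01, SE 0.61, adjusted p = 0.0011). TOD6, a repressor of ribosome assembly genes, was the lowest regulator at 30 min (-4.07, SE 0.26, adjusted p = 2.7e-09).

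The assembly factors, which process rRNA and build the subunits in the nucleolus, were lower at both early and later times. Of 65 tested, 52 were lower at 5 min and 64 at 30 min, with medians of -1.26 and -2.68, and the remaining gene at 30 min was NOP10. With the block the counts were 62 and 65. Of all genes, 4.65% and 14.0% were lower at 5 and 30 min without the block, and 12.4% and 24.2% with it. These shares also stand beside the counts of lower genes in the next lists. DBP2, an RNA helicase, was lowest (-5.88, SE 0.38, adjusted p = 2.7e-09) and SSF2 the least lowered among those that passed (-1.58, SE 0.22, adjusted p = 2.0e-05). The 7 dedicated chaperones that bind newly made ribosomal proteins were all lower at 30 min in both fits, without the block from -3.22 for SYO1, the carrier of RPL5 and RPL11, to -1.52 for TSR2, the carrier of RPS26. Of 33 translation factors 23 were lower at 30 min and none higher without the block, and with it 29 were lower and ANB1 was higher (1.83 without the block, adjusted p = 0.063 there and 0.0021 with it). Their median without the block was -1.12, and the values called there ran from -2.13 for the elongation factor YEF3 to -0.75 for the cap-binding protein CDC33. Of 12 ribosome-bound proteins, 6 were lower without the block, and with it 9 were lower and BTT1 was higher (1.09 without the block, adjusted p = 0.063 there and 0.027 with it). ASC1, a constant protein of the small subunit that the naming rule did not take in, had 2260, 2680 and 2450 CPM at 30 min, against 5060, 5110 and 6780 CPM at 0 min (-1.20, SE 0.19, adjusted p = 8.0e-05). SSB2, the lowest of these, had -1.45 (SE 0.53, adjusted p = 0.050) and EGD1 the highest called value, -0.56. Mitochondrial ribosomal protein genes did not share the fall: of 67, none was lower and 2 were higher at 30 min, MRP8, matched by its name alone (1.91), and MRPL28 (0.99), with a median of 0.29, beside 11.7% of all genes higher. With the block none was lower and 17 were higher, beside 21.2% of all genes. Of 20 stress genes all were higher at 30 min in both fits, from 2.88 for TPS2 to 6.47 for HSP12 without the block, and 16 were already higher at 5 min, beside 4.15% of all genes.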

How the data were processed

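RNA-seq libraries (24, from 3 courses of 8 times) were used. According to the labels and the study's methods, the authors mapped 65-base reads with TopHat2 to build R64 and counted them per feature with HTSeq, and the deposited values are raw counts. Versions and strand settings are not given in the sources used here. Library preparation is described for 1 course. The labels do not say whether the courses were grown apart, so p-values measure the spread between these libraries. Rows that name no feature, such as reads outside features, were left out. The RefSeq annotation of R64 supplied names, coding sequences and promoters.

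Counts were fitted with edgeR 4.0.16 in R 4.3.3 (quasi-likelihood F-test, TMM factors, a filter on low counts, time as a factor), which kept 6262 of 7140 features, with Benjamini-Hochberg adjustment over all of them, and an adjusted p under 0.05 made a call, with no fold minimum. Only the fit without the block was checked on simulated counts. These had a smaller coefficient of variation than the data and no difference between courses, so the check does not cover the course structure. Genes varied between libraries with a common coefficient of variation of 0.59 (16 residual degrees of freedom, 2.98 prior). Within-course ratios used a pseudocount of 1 CPM. Intervals cover counting error only. Residuals from the mean of each time correlated within course 1 (0.777 to 0.913), course 2 (0.565 to 0.728) and course 3 (0.498 to 0.736, 28 pairs of libraries each), so the course numbers pair the libraries and a fit with the course as a block is given beside each result whose call it changed or whose count it moved by over 1.5 times. Alternatives were DESeq2 1.42.0, RLE factors, total counts with and without the 137 genes, no filter, a 2-fold minimum and each course left out.

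The genes named are the 3 lowest and 3 highest log2 fold changes in each of 4 pairs of times, the 3 highest levels per kilobase, 8 single-copy genes, pairs whose A share moved by at least 10 points, and 7 named regulators and partners with the lowest and highest called gene of each list. The genes and lists were chosen with earlier results of these data known.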

Additional observations from a re-analysis of the deposited data

How the results depend on the processing

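The course as a block raised the number of genes called to 128 over time, 7 at 5 min, 126 at 30 min and 131 at 240 min against 0 min, 6 at 240 min against 30 min and 63 at 180 min against 30 min. Total-count scaling gave 23, 35 and 27 over time and at 30 and 240 min against 0 min, and totals without the 137 genes gave 25, 36 and 30. Of all 6262 genes, total counts called 652 lower and 1049 higher over time, and 646 and 518 lower at 30 and 240 min. Totals without the 137 genes called 711 lower and 890 higher over time, and 723 and 596 lower. Over time, both scalings thus called a larger share of all genes than of the 137 genes. A 2-fold minimum gave 29, 35 and 24, and 1 at 180 min against 30 min, shares not counted over all genes. DESeq2 called 1 at 5 min, 2 at 240 min against 30 min, 18 at 180 min against 30 min and 1 at 240 min against 180 min. Of all 6262 genes it called 361 lower, 494 higher, 512 higher and 6 lower in these comparisons. Leaving out a course gave 0 to 128 over time, 0 to 12 at 5 min, 11 to 122 at 30 min, 5 to 131 at 240 min, 0 to 10 at 240 min against 30 min and 0 to 46 at 180 min against 30 min. With the block they were 129, 72 and 110 over time without courses 1, 2 and 3, 122, 112 and 99 at 30 min and 130, 103 and 115 at 240 min, and ranged over 0 to 13, 4 to 12 and 11 to 46 in the others. The cause was not tested. At 5 min and at 240 min against 30 min, the share called was larger over all genes than over the 137 genes in every fit with a course left out. It was also larger over time without the block when course 2 or 3 was left out. The same held at 180 min against 30 min without the block when course 2 or 3 was left out, and with the block when course 3 was. With all courses and no block, 5.41% of all genes were higher there, against 4.38% of the 137. RLE factors and no filter kept the 7 counts named here within 1.5 times. The 4 medians moved by less than 1 SD between courses under every alternative. None of the 42 values of the 25 named genes was called in 1 direction in the main fit and in the other under an alternative. Signs of values that were not called could change. At 30 min RPL41A (0.47) and RPL29 were the 2 values above 0 with all courses, and without course 1 none of the 137 was. Depth limited RPL29 most, with 35 counts in its lowest library.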

Other observations

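The eIF5A genes, which encode an essential factor that helps ribosomes through difficult sequences, moved in opposite directions and reached similar levels at 240 min, and they were picked after their values were seen. HYP2, the form known from air, had 828, 914 and 756 CPM at 240 min in courses 1 to 3, against 5960, 7540 and 7330 CPM at 0 min (log2 fold change -3.06, SE 0.20). ANB1, the form known from hypoxia, had 687, 740 and 764 CPM at 240 min, against 1.04, 5.46 and 7.03 CPM at 0 min (7.35, SE 0.86, adjusted p by edgeR 4.7e-06). At 30 min ANB1 had 9.86, 14.2 and 23.7 CPM (1.83, adjusted p = 0.063 without the course as a block and 0.0021 with it), while HYP2 had 2290, 2430 and 2630 CPM (-1.50, SE 0.18). The 2 coding sequences are close copies, so reads could be lost or misplaced between them. HEF3, a copy of YEF3, was the other translation factor higher at 240 min (1.12, SE 0.30, adjusted p = 0.0091).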
